A study of Mus musculus with 4 samples.

Results

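Rgs4, Rgs5, Rgs7 and Rgs8 encode regulators of G protein signalling, and all 4 were in the authors' table of genes lower in mouse embryonic stem cells that had received an shRNA against Mrhl. These 4 genes were chosen from the deposited lists by their symbols, out of 1132 distinct symbols listed, so their being listed and their shared direction describe the choice and are not a test. Mrhl is a long non-coding RNA found in the nucleus, and its own level could not be checked from the tables. The cells were of the established mouse embryonic stem cell line E14tg2a, from strain 129/Ola, grown without feeders on gelatine. The control group received a scrambled shRNA and the other group received shRNA 4 against Mrhl, with 2 libraries in each group, and all 4 libraries were made 48 hours after transfection. The sources used here name a single shRNA against Mrhl. A label field also speaks of a lentivirus, whereas the protocol describes transient transfection, and nothing states that the libraries came from separate cultures.

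Each listed gene had 1 signed fold-change value for sh-Mrhl against scrambled, with a minus sign for lower in sh-Mrhl. Values per library, counts, expression levels and p-values were not analysed here, so depth is unknown and no replicate error or test can be given for any gene. The scale of the value, log2 or signed linear, is not stated, so values are given as deposited. The tables held 721 symbols listed as lower and 410 listed as higher, with 1 further symbol in both. "Lower" and "higher" below mean only that the authors listed a gene so.

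A heterotrimeric G protein is switched on when an activated receptor loads its alpha subunit with GTP, and it is switched off when the alpha subunit hydrolyses that GTP. RGS proteins carry a conserved domain that binds the active alpha subunit and speeds this hydrolysis, and so shorten the signal. The R4 subfamily, with Rgs4, Rgs5 and Rgs8, consists mostly of small proteins that are little more than the RGS domain and act on alpha subunits of the Gi/o and, for several members, Gq classes. The R7 subfamily, with Rgs7, has further domains, works as a complex with the beta subunit Gnb5 and acts on Gi/o. Rgs4, Rgs7 and Rgs8 are best known from neurons, and Rgs5 is a marker of pericytes and other mural cells of blood vessels.

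All 4 genes lie on chromosome 1. The windows from 250 bases before to 50 bases after the start of each gene, shown because the 4 genes were listed in 1 direction, are given below in the direction of transcription, from RefSeq on GRCm38.p6. Capitals mark each match, on either strand, to 1 of 10 short motifs searched for. These were the TATA box TATAAA, the CCAAT box CCAAT, the GC box GGGCGG, the octamer bound by POU factors ATGCAAAT, the TCF/LEF motifs TTCAAAG and ATCAAAG, the SOX motif ACAATG, the E-boxes CACGTG and CAGCTG, and the cyclic AMP response element TGACGTCA.
Rgs4 promoter, chr1:169747593-169747892, minus strand: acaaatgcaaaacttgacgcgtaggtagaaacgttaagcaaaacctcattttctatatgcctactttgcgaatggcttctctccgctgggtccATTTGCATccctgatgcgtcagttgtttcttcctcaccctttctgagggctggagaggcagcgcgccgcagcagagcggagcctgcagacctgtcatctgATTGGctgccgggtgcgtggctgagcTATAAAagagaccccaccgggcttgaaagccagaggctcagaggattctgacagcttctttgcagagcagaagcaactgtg
Rgs5 promoter, chr1:169655251-169655550, plus strand: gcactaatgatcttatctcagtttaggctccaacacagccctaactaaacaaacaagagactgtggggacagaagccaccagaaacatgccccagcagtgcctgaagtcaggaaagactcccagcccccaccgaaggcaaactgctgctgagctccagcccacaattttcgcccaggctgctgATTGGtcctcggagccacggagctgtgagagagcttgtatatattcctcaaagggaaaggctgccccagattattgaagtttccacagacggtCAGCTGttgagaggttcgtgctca
Rgs7 promoter, chr1:175492496-175492795, minus strand: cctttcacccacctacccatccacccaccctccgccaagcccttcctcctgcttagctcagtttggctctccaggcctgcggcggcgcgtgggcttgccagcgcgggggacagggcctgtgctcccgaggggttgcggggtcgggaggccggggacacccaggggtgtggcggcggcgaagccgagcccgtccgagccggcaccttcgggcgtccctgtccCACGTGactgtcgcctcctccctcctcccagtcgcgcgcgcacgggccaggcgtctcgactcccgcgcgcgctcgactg
Rgs8 promoter, chr1:153652787-153653086, plus strand: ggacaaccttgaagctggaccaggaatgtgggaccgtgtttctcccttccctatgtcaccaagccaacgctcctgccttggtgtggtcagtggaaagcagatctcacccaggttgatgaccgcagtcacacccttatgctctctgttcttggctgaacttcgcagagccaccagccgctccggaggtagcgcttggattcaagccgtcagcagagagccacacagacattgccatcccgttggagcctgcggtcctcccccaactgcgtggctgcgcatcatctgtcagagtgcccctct

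No motif was shared by all 4 windows, and the CCAAT box was the only one in more than 1. A match is a description and does not show that a factor binds there. The Rgs4 window held a TATAAA whose first base is at -31, counted with the start site as the first base and no base 0, a reversed CCAAT box at -57 and a reversed octamer at -157. These letters occur in 13.6%, 37.4% and 1.74% of all 32851 promoter windows of the same length. The Rgs5 window had a reversed CCAAT box at -67 and a CAGCTG at 27, the latter found in 16.3% of windows. The Rgs7 window held only a CACGTG at -29, a motif in 7.15% of windows. The Rgs8 window had no match to any of the 10 motifs, which says only that these letters are absent there. Absent from all 4 were the GC box, found in 35.7% of all windows, the SOX motif, found in 12.6%, and the cyclic AMP response element, found in 1.79%. Also absent were the TCF/LEF motifs, of which that beginning TT was in 5.14% of windows and that beginning AT in 3.73%.

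Base composition set Rgs7 apart. Its window was 73.3% G and C with 34 CpG dinucleotides, more than in 92.3% of all windows. The Rgs4 window had 13 CpG, the Rgs8 window 12 and the Rgs5 window 6, against a median of 7 over all windows. RefSeq gives 2 further starts for Rgs8, 12249 and 12648 bases inside the annotated gene, and the windows at both held a CCAAT box and a CAGCTG. Which start was used in these cells was not measured.

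Rgs8 had the most negative value of the 4. Rgs8 (MGI:108408), an R4 member known from cerebellar Purkinje cells, stood at -2.86 in the authors' deposited table. This placed it 39th of 345 lower protein-coding genes, so that 88.7% of them were closer to zero. Rgs8 lies on the plus strand of chromosome 1 from 153653025 to 153700323 (mm10) and spans 47.3 kb, with 7 exons in the transcript used. GENCODE M21 has 10 transcripts for it and 1 antisense gene model, Gm29529, on the other strand within its bounds. Gm29529 was not listed, and reads of the pair may not be separable because the strand setting of the counting is not given.

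The other 3 genes had values close to each other and close to zero compared with most listed genes. Rgs5 (MGI:1098434), the mural cell R4 member, was at -1.73, Rgs7 (MGI:1346089) at -1.70 and Rgs4 (MGI:108409), an R4 member abundant in brain, at -1.66 in the authors' deposited table. Their ranks among the 345 lower protein-coding genes were 255, 265 and 297, on the shallow side of the median of -1.95. The 3 values differ by 0.075 in all, and 43 lower protein-coding genes, or 12.5%, had values in the range from Rgs5 to Rgs4. The gap between Rgs8 and Rgs5 was -1.13 on the deposited scale and held 215 lower protein-coding genes. Subfamily did not order the values, since the R7 gene Rgs7 stood between the R4 genes Rgs5 and Rgs4. With no error on any value, whether the 3 differ from each other or from Rgs8 cannot be tested. In such bulk libraries, fewer cells of a type and less RNA per cell cannot be told apart.

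**Figure D1:**
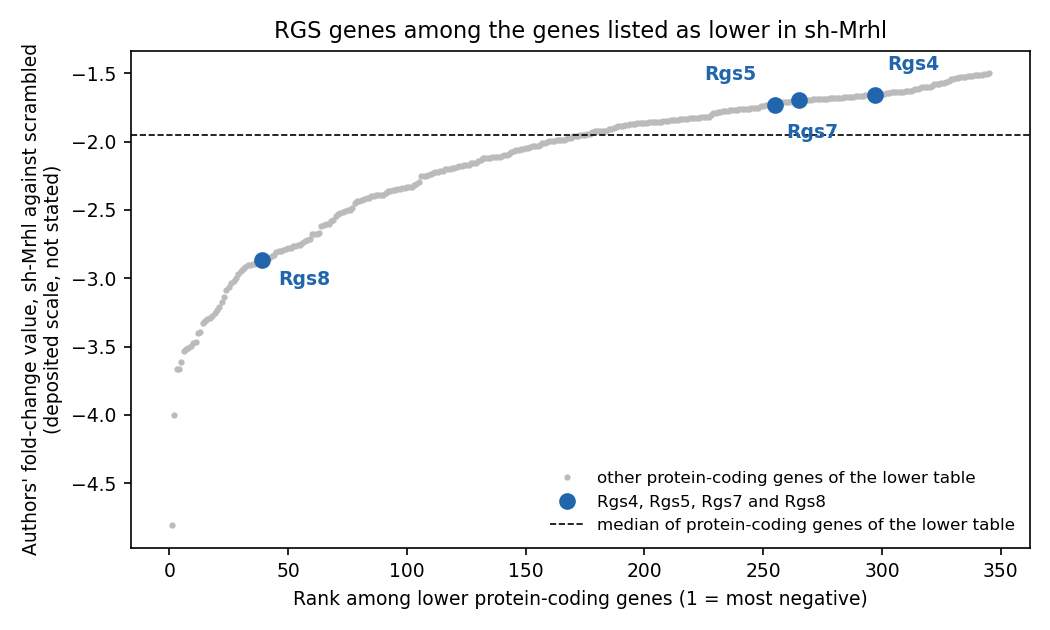
Authors' fold-change value (y axis, deposited scale, not stated) of each of the 345 protein-coding genes listed as lower in sh-Mrhl, by rank from the most negative (x axis). Blue points are the 4 RGS genes, grey points the other genes and the dashed line the median of -1.95. Rgs8 lies at rank 39, and Rgs5, Rgs7 and Rgs4 lie together at ranks 255 to 297.

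Among the 24 annotated protein-coding genes with an Rgs symbol, 4 were listed, all as lower, and the other 20 were in neither table. That is 16.7%, against 2.50% of 21924 annotated protein-coding symbols listed in either direction, 1.57% as lower and 0.930% as higher. Since the genes were picked for being listed, this difference carries no evidence of its own. Of all listed protein-coding symbols, 62.8% were in the lower table. By subfamily, 3 of 10 R4 genes and 1 of 4 R7 genes were lower. None of the 3 R12 genes, the 3 RZ genes or the 4 other Rgs-named genes was listed. None was listed of the 15 further genes whose products carry an RGS or related domain, such as the receptor kinases Grk2 to Grk6, the Wnt scaffold genes Axin1 and Axin2 and the exchange factor gene Arhgef12. Sets of these sizes would hold few or no listed genes at a share of 2.50%, so these absences are near the background. The R4 and R7 counts were fixed by the choice of genes, so no difference between subfamilies is read from them. Values of unlisted genes and the authors' threshold were not analysed here, so nothing is known of the size or direction of their differences.

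The listed genes were not alike in structure. Rgs4 is compact, at 6.17 kb with 5 exons, on the minus strand from 169741477 to 169747642. Rgs5 spans 40.3 kb on the plus strand from 169655501 to 169695813, also with 5 exons. Rgs7 spans 433 kb on the minus strand from 175059087 to 175492500 and has 18 exons in the transcript used, with the unlisted gene model 5730408A14Rik on the same strand within it. The coding lengths of Rgs4, Rgs5 and Rgs8 were 615, 543 and 540 bases, against 1431 bases for Rgs7. Rgs6, its long R7 relative at 574 kb and 1470 coding bases, was not listed. The R4 genes Rgs1, Rgs2 and Rgs16, at 4.82 to 6.95 kb as compact as Rgs4, were not listed either.

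**Figure D2:**
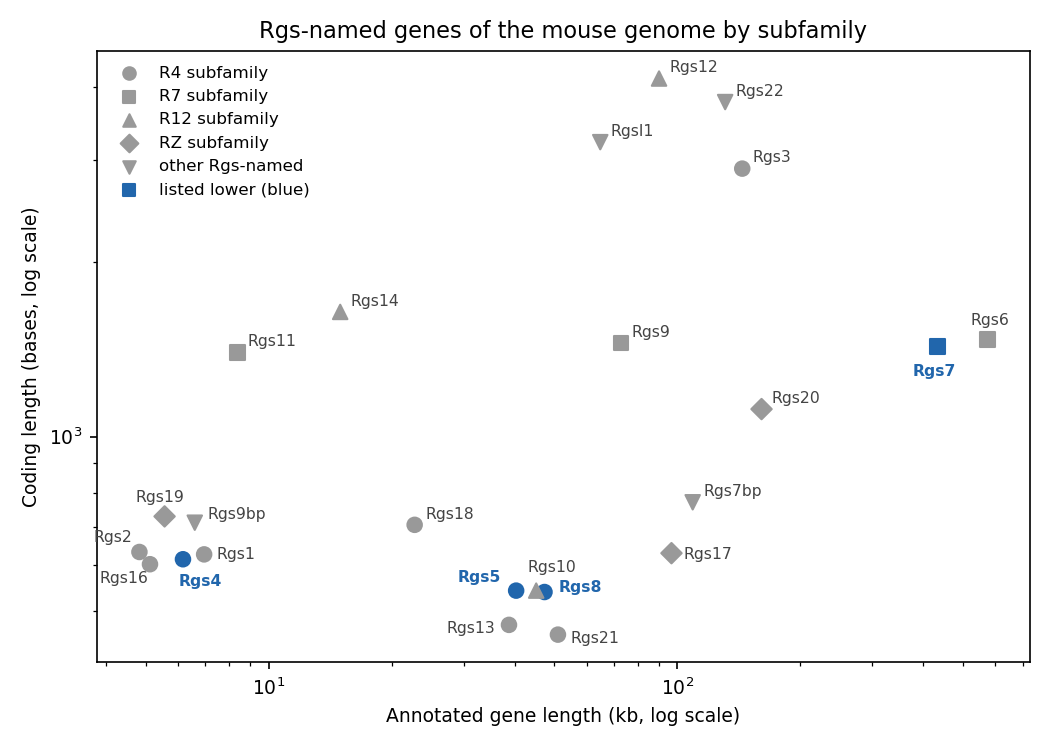
Annotated gene length in kb (x axis, log scale) against coding length in bases (y axis, log scale) for the 24 Rgs-named mouse genes, with marker shape for subfamily and blue for the 4 genes listed as lower. Rgs4 lies among the compact R4 genes, Rgs5 and Rgs8 at 40.3 and 47.3 kb, and Rgs7 beside the unlisted Rgs6.

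Whether reads were shared between relatives was not tested, and identical stretches between the transcripts used were short. Over GENCODE M21 transcripts, the longest one between any of the 4 genes and any other R4 or R7 gene was 24 bases, for Rgs8 with its neighbour Rgs16, followed by 23 bases for Rgs5 with Rgs1 and 22 bases for Rgs7 with Rgs6. Between listed R4 genes, local alignments of the coding bases covered 542 columns with 61.1% identity for Rgs4 and Rgs5, 484 columns with 63.2% for Rgs4 and Rgs8 and 310 columns with 59.7% for Rgs5 and Rgs8. Rgs7 and Rgs6 matched at 71.1% over 1311 columns. The identity of the neighbours Rgs4 and Rgs5 was close to the median of 61.2% over 45 R4 pairs. The longest stretch shared by the coding bases of listed R4 genes was 17 bases of Rgs4 and Rgs5, shown with 18 bases on each side. It was chosen for being identical, so it does not measure how far the neighbouring genes have diverged. Capitals mark bases equal to the shared stretch. In Rgs8 14 of the 17 bases at the corresponding place were the same.
Rgs4 coding bases 274 to 326: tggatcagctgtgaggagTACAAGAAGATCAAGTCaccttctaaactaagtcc
Rgs5 coding bases 280 to 332: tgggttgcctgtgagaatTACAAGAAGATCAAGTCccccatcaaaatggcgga
Rgs8 coding bases 256 to 308: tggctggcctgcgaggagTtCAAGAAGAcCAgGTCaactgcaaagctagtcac

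The mouse genome keeps many RGS genes together on chromosome 1, and of the 4 listed genes only Rgs5 and Rgs4 lie next to each other there. Chromosome 1 holds 12 of the 24 Rgs-named genes, and the 12 on other chromosomes were all unlisted. With 2.50% of protein-coding symbols listed, a set of 12 would hold few or no listed genes, so their absence is near the background. The 4 listed on chromosome 1 were fixed by the choice of genes. Of the 10 R4 genes, 9 lie on chromosome 1, so subfamily and chromosome cannot be told apart for them. Of all annotated protein-coding symbols of chromosome 1, 3.24% were listed and 2.33% were listed as lower. Chromosome 1 had the highest listed share of the 21 chromosomes, followed by chromosome 11 at 3.12%. Its 39 listed genes include the 4 chosen for being listed, so nothing is read from this rank. The chromosome 1 genes form 3 groups and 2 single genes when joined at distances under 500 kb. In the group of Rgs2, Rgs13, Rgs1, Rgs21 and Rgs18, all of the R4 subfamily and spanning 776 kb, none was listed. That is near the background for a set of that size. In the group of Rgs8, Rgs16 and Rgsl1, which begins 8.88 Mb further along, only Rgs8 was listed. Rgs16, also an R4 gene and on the same strand, starts after a gap of 40025 bases from the end of Rgs8.

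Rgs5 and Rgs4 form the third group, and both were listed, which the choice of genes had fixed. They face each other tail to tail, with 45663 bases between their ends, 92.1 kb between their starts and no annotated gene in between. Their values, -1.73 and -1.66 in the authors' deposited table, lay on either side of that of Rgs7, which is 5.31 Mb further along from Rgs4. The nearest other protein-coding genes were not listed. These were Nuf2, a kinetochore gene 124 kb from Rgs5, and, on the far side of Rgs4, Ccdc190, the steroid and cholesterol enzyme gene Hsd17b7 and the collagen receptor gene Ddr2, 181 to 225 kb away. Over all listed protein-coding genes, 33 neighbouring pairs lay less than 100 kb apart, and Rgs5 with Rgs4 was 1 of the 8 pairs in which both were lower. In 12 pairs both were higher and in 13 the directions differed. Counting listed genes of every type, 36 of 115 pairs were both lower.

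Further listed genes near the 4 were of both directions. Besides the 4 themselves, 64 annotated genes of any type lay within 500 kb of at least 1 of them, and 4 of these, or 6.25%, were listed, 2 as lower and 2 as higher. Over the whole annotation 2.04% of symbols were listed. Pld5, a phospholipase D family gene 470 kb from Rgs7, had 1.56 in the authors' deposited table of higher genes. The antisense model 4930500M09Rik, 467 kb from Rgs4, was at -2.42, and the processed pseudogene Gm8818, 347 kb from Rgs8, was at 2.24 in the authors' deposited tables. Within 100 kb of the 4 genes, none of the 14 other annotated genes was listed. At a share of 2.04% this is near the background for a set of that size.

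**Figure D3:**
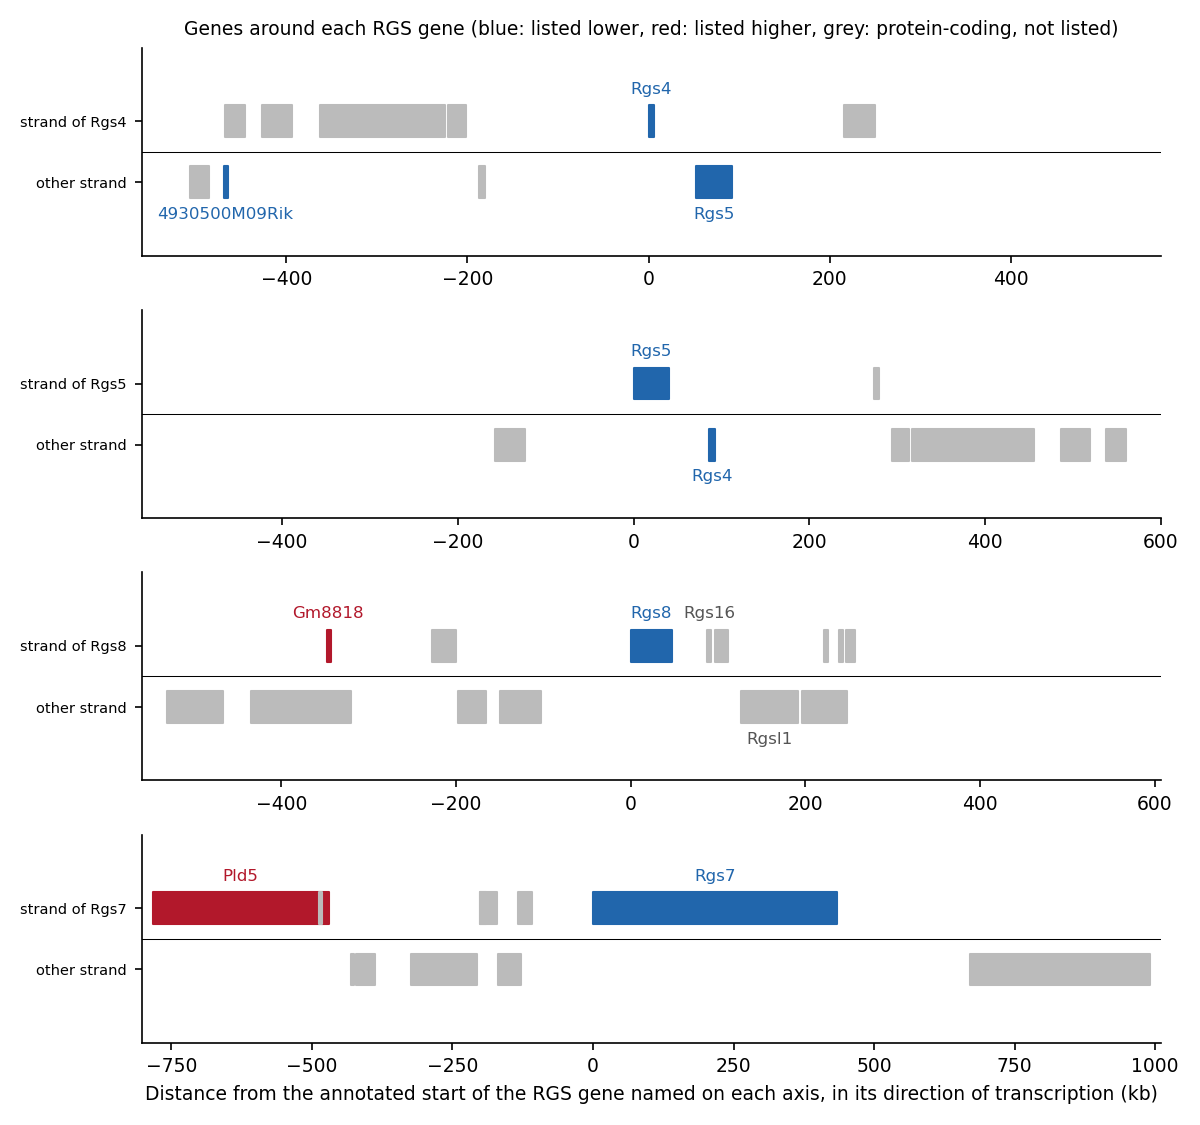
Annotated genes within 500 kb of Rgs4, Rgs5, Rgs8 and Rgs7, without any not reported here, by distance in kb from the start of the named gene along its direction of transcription (x axis), with genes on its strand above the line and on the other strand below. Blue genes were listed as lower and red genes as higher, and grey genes are protein-coding and unlisted. Rgs4 and Rgs5 appear in each other's panel, and Rgs16 beside Rgs8 is grey.

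Other genes of G protein signalling were listed in both directions. Outside the RGS family, 265 annotated genes were examined, of which 11 were lower and 6 higher, or 6.42% listed. Over all annotated protein-coding symbols 2.50% were listed, 1.57% as lower and 0.930% as higher. These lists were chosen with results known, so nothing is read from the difference. None of the 33 G protein alpha, beta and gamma subunit genes was listed, which includes Gnai2 and Gnaq, encoding alpha subunits that R4 proteins act on, and Gnb5, the partner of R7 proteins. The same held for Rgs7bp, which anchors R7 complexes at the membrane, for the orphan receptor gene Gpr158, which binds Rgs7, for the 4 arrestins and for the 6 GIRK and M-current potassium channel genes. At a share of 2.50%, sets of these sizes would hold few or no listed genes, so their absence is near the background.

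Receptors were the most numerous listed class, with 6 lower and 5 higher of the 158 in the lists, or 6.96%, beside the 2.50% over all protein-coding symbols. Grm8, a metabotropic glutamate receptor gene, was at -3.49, Cckbr, a cholecystokinin receptor gene, at -2.45, Hrh2, a histamine receptor gene, at -2.22 and Vipr1, for vasoactive intestinal peptide, at -2.03 in the authors' deposited table. Of the receptors in the lists, Avpr1a, for vasopressin, was also lower at -1.89 and the chemokine receptor gene Cxcr6 at -1.79 in the authors' deposited table. Higher receptors were the melanocortin receptor gene Mc5r at 3.08, the serotonin receptor genes Htr6 at 1.96 and Htr4 at 1.61, the ADP receptor gene P2ry12 at 1.86 and the thrombin receptor gene F2rl3 at 1.58 in the authors' deposited table. The lists do not hold every G protein-coupled receptor. Among listed receptors outside them, named after their values were seen, the adhesion receptor gene Adgrg6 was at -2.16, the urotensin receptor gene Uts2r at -1.93 and the relaxin family receptor gene Rxfp2 at -1.84 in the authors' deposited table. Receptors with positive values in the authors' deposited table included Gpr12 at 2.34, the lactate receptor gene Hcar1 at 1.91 and Gpr35 at 1.61. Olfactory and vomeronasal receptors were not examined.

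Of 59 genes in the effector lists, 5 were lower and 1 higher, or 10.2%, beside the same 2.50%. The phosphodiesterases, which break down cyclic nucleotides, had 3 of 23 listed, all lower. Of all listed protein-coding symbols, 62.8% were lower, and the lists were chosen with results known, so nothing is read from this count. Pde6g, the inhibitory subunit of the rod photoreceptor enzyme, was at -3.46, the cyclic AMP enzyme gene Pde4b at -1.88 and the calmodulin-dependent Pde1a at -1.64 in the authors' deposited table. Itpr2, a calcium release channel gene downstream of Gq, was at -1.62 and the bicarbonate-sensitive soluble adenylyl cyclase gene Adcy10, which is not driven by G proteins, at -1.51 in the authors' deposited table. The authors' deposited table of higher genes had Adcy4, a membrane adenylyl cyclase gene, with 1.66. None of the 13 genes for protein kinases A and C was listed, which is near the background for a set of that size.

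**Figure D4:**
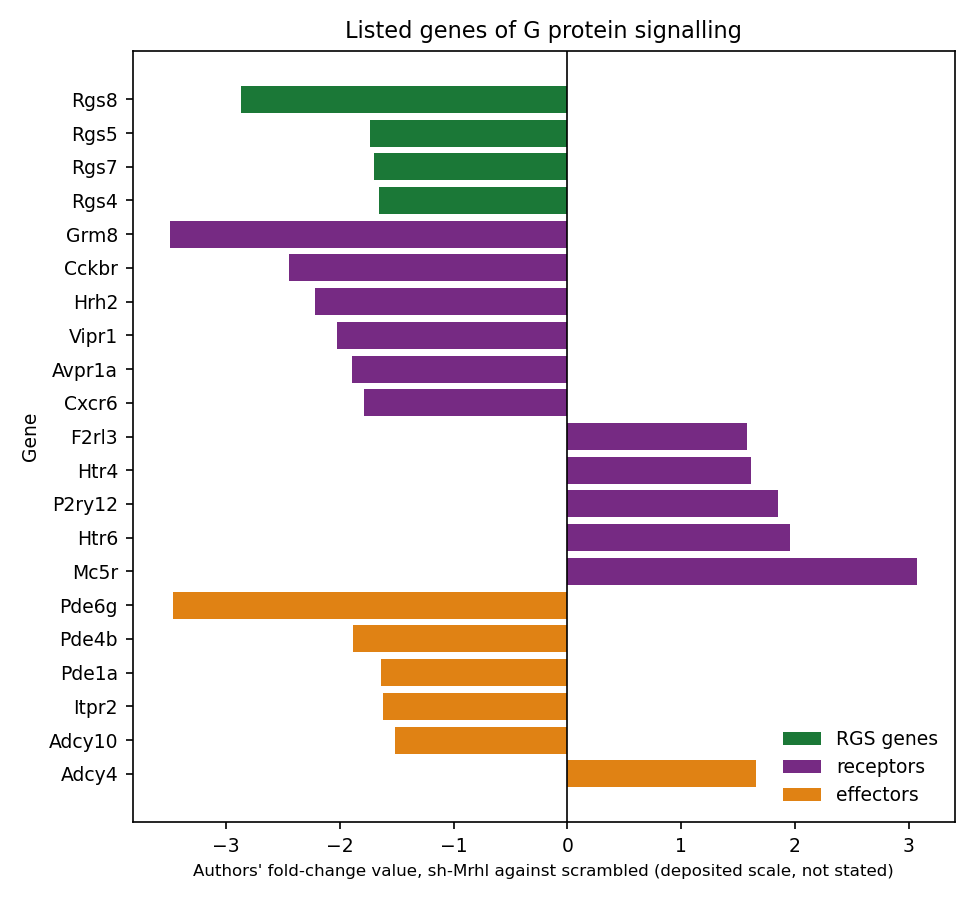
Authors' fold-change value (x axis, deposited scale, not stated) of every listed gene from the G protein signalling lists, grouped as RGS genes in green, receptors in purple and effectors in orange. The 4 RGS bars all point to the lower side, while receptors point both ways. Of 6 genes from the effector lists, all but Adcy4 point to the lower side, among them Adcy10, which is not driven by G proteins.

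Of each list of markers of other cell types, 1 gene was listed. That is 11.1% of 9 pericyte and smooth muscle markers, 11.1% of 9 neuronal markers and 16.7% of 6 fibroblast and feeder markers, beside 2.50% of all protein-coding symbols. The listed mural marker was the potassium channel regulator gene Abcc9, higher with a value of 1.76 in the authors' deposited table. None of the 9 mural markers was lower, which at a lower share of 1.57% is near the background for a set of that size. Some other genes known from pericytes or smooth muscle, outside the list, were picked from the lower genes after their values were seen. Higher and unlisted genes of that kind were not counted, so nothing is read from these picks. In the authors' deposited table the smooth muscle coactivator gene Myocd was at -2.39, the pericyte gene Higd1b at -1.97, the Notch target gene Heyl at -1.85 and the smooth muscle potassium channel subunit gene Kcnmb1 at -1.76. Slc17a6, a vesicular glutamate transporter gene, had -3.53 in the authors' deposited table and was the listed neuronal marker. The collagen gene Col3a1, at -1.69 in the authors' deposited table, was the listed fibroblast marker. None of 6 markers of pluripotent cells, such as Pou5f1 and Nanog, was listed. At a share of 2.50% this is near the background, so it does not show that these genes were unchanged. With no expression levels, neither the labelled cell type nor the presence of other cells could be checked, and their part in the RGS values was not tested.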

How the data were processed

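RNA sequencing of 2 scrambled and 2 sh-Mrhl libraries was represented by 2 tables of listed genes. The deposited fold change, named by the authors in the column headers without its scale, was handled as a score. Alignment and testing tools were TopHat2 and Cuffdiff, with mm10, per the submitters' processing notes. Tool versions, threshold and strand setting are not stated in these sources. No listed value lay between -1.5 and 1.5. The planned count or FPKM tests could not be run, since no value per library was analysed.

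Symbols were reduced to 1 per table, and the 1 symbol in both tables was left out. Positions, gene types and transcripts came from GENCODE M21 (GRCm38, also called mm10), which held 1129 of 1132 symbols, and promoters from RefSeq GRCm38.p6, where all 4 genes matched. Each gene was represented by its principal APPRIS transcript, preferring CCDS and then the longest coding sequence. Coding bases were aligned with Biopython 1.88 (match 1, mismatch -1, gap opening -5, extension -1), and identity counts gap columns. Python 3.11.15, pandas 2.3.3, numpy 2.4.6 and matplotlib 3.10.9 were used. Distances, motif matches and shared stretches were tested on simulated data.

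The 4 genes and the 24 gene lists were chosen with earlier results of these data known. The genes named are the 4 genes, listed members of the lists with up to 5 per list, listed genes within 500 kb and neighbouring RGS genes. Unlisted genes near the 4 genes, unlisted examples from the lists, and receptors and mural genes outside the lists were added after values were seen. Some genes these rules name are not reported here. Alternatives changed the minimum value, the family, the annotation, the gene types, the window and the alignment.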

Additional observations from a re-analysis of the deposited data

How the results depend on the processing

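With absolute values of at least 2, 1 Rgs-named gene remained as lower, namely Rgs8, and the other pathway genes fell to 5 lower and 1 higher. Listed genes near the 4 numbered 0 within 100 kb and 7 within 1000 kb, and 2 within 500 kb without unnamed gene models, against 4. The cause was not tested beyond the smaller or larger sets these settings leave by construction. With RGS-domain genes added the count of listed genes remained 4, but of 39, or 10.3% in place of 16.7%. The share of listed Rgs-named genes was 16.7% also with RefSeq symbols and with all gene types, and the chromosome 1 share with all gene types was 2.97%. With protein-coding genes only, the percentile among lower genes went from 91.1% to 88.7% for Rgs8 and from 29.0% to 26.1% for Rgs5. Of the 4 genes, only Rgs8 moved outside an exact 95% binomial interval, which is narrower for high percentiles. The percentiles are ranks in complete lists, so this interval measures no sampling error and does not set Rgs8 apart. Global alignment, added after the data were seen, lowered the identity of the R4 pairs to between 52.0% and 55.7%. Protein identity was not run, and coding bases were used in its place. No paired analysis was possible because no library has values of its own here, which also left the replicate block, leaving out replicates and pseudocounts not run. Limits set by depth are unknown.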
